A study of Mus musculus with 8 samples.

Results

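The 6 genes described here, S100a8, S100a9, Camp, Ngp, Ltf and Lcn2, encode granule and cytosolic proteins of neutrophils, and their transcripts were followed through single-cell libraries of sorted mouse bone marrow T cells. They were chosen by symbol among the 32285 genes of the count matrices, with results of these same libraries already known, so every difference between the genotype groups in their levels is a description and not independent evidence. The mice were C57BL/6. The RUNX1::RUNX1T1 group carried Runx1Runx1t1/+, a conditional knock-in of the AML fusion gene, together with Mx1-Cre, a Cre recombinase under an interferon-inducible promoter. The Control group, which the labels call wild type, were littermates with Runx1Runx1t1/+ and no Mx1-Cre according to the methods of the study. Poly(I:C), which switches Mx1-Cre on, was injected into the peritoneum of both groups 4 times at a dose of 5 mg/kg, and the mice were killed 4 weeks after induction. Each group had 2 pools, each pool mixed the marrow of 2 mice, and the mouse of each cell is not known. The pool is thus the unit of every test. Gene tests between the groups set a difference against the spread between pools. Gene tests between kinds of T cell, with the pool as a block, set it against the spread of the difference within pools. T cells were enriched by negative selection and sorted as DAPI- mCherry- CD3+, a gate that takes away cells expressing the mCherry reporter of the fusion gene. The gate and the genotype cannot be told apart in any comparison of the groups.

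Neutrophils ripen in the marrow through stages that each load a different set of granules. S100a8 and S100a9 encode the subunits of calprotectin, a zinc- and calcium-binding complex that fills the cytosol of neutrophils and monocytes. Camp (cathelicidin, an antimicrobial peptide), Ngp (neutrophilic granule protein), Ltf (lactoferrin, an iron-binding protein) and Lcn2 (lipocalin 2, which binds bacterial siderophores) are made at the myelocyte and metamyelocyte stages for secondary granules. Transcription factors of the C/EBP family drive this programme. Marrow neutrophils hold very large amounts of these transcripts and break easily during handling. RNA set free in this way is caught in droplets together with T cells, and a T cell barcode can then carry a few unique molecular identifiers (UMIs) of genes that the T cell does not express. Free RNA adds much the same number of molecules to every droplet of 1 library, whatever the cell in it.

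All 6 are protein coding in the GENCODE annotation of GRCm38. S100a8 (ENSMUSG00000056054, + strand, chr3:90668978-90670035) and S100a9 (ENSMUSG00000056071, - strand, chr3:90692632-90695721) are neighbours on chromosome 3. Camp (ENSMUSG00000038357, - strand, chr9:109847379-109849617), Ngp (ENSMUSG00000032484, + strand, chr9:110419747-110423012) and Ltf (ENSMUSG00000032496, + strand, chr9:111019271-111042767) lie on chromosome 9. Lcn2 (ENSMUSG00000026822, - strand, chr2:32384633-32388252) is on chromosome 2. The promoter stretches of 3 members are shown, because their transcripts moved together across cell classes and because Ltf departed from the other 2 in T cells. They are RefSeq sequences of GRCm38.p6, printed 5′ to 3′ on the gene's strand, and lie outside annotated exons. Capitals mark matches to the C/EBP-type motif TTNCNNAA on either strand.
S100a8, chr3:90668878-90668977, + strand: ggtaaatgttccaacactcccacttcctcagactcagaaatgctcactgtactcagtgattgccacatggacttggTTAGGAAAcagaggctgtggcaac
Ngp, chr9:110419647-110419746, + strand: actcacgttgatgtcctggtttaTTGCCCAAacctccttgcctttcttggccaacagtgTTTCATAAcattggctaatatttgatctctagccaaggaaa
Ltf, chr9:111019171-111019270, + strand: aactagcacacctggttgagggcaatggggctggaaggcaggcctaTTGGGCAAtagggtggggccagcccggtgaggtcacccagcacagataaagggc

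The C/EBP-type motif stood within 250 bases before the RefSeq start in 5 of the 6 members, all but Camp, and in 36.8% of 32851 mouse promoters. The letters TATAAA stood on the gene's strand in 1 of the 6 members, S100a8, at 30 bases before its start, and in 7.59% of all promoters. A match is a description of the letters and not a bound site.

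The 4 libraries were deep and alike in depth. They held 13633 to 14664 barcodes, 90958101 to 102883449 UMIs and a median of 6239 to 6368 UMIs per barcode. Of 56649 barcodes, 53033 were kept and 40500 were T cells, defined by a UMI of Cd3d, Cd3e or Cd3g and a productive TRA or TRB contig, with fewer than 3 different myeloid markers. No member was used to define a cell class. The markers of the sorted cell type were present, since each pool gave 9582 to 10901 T cells against 654 to 927 Cd3-negative barcodes without a contig. Any pair of pools shared 256 to 306 barcode sequences, 1.88% to 2.10% of the smaller pool. Hbb-bs, a globin transcript of red cells that is also set free in marrow, was at 62.6 and 41.3 UMIs per 1000 T cells in the RUNX1::RUNX1T1 pools and at 45.4 and 59.8 in the Control pools. The 2 ranges of this transcript overlapped, unlike those of most members.

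In the 3 pools with many UMIs of the 6 genes, nearly all of these UMIs sat in very few barcodes. The 6 genes together gave 218 UMIs in RUNX1::RUNX1T1 replicate 1, 12087 in RUNX1::RUNX1T1 replicate 2, 152284 in Control replicate 1 and 20989 in Control replicate 2. These are 0.000212%, 0.0121%, 0.167% and 0.0210% of all UMIs of the 4 libraries. The totals of RUNX1::RUNX1T1 replicate 2 and Control replicate 2 were close to each other, while the other pool of each group lay far below and far above them. Barcodes with at least 100 UMIs of the 6 genes numbered 0, 1, 49 and 6 in the same order. They held 97.5% of the 6-gene UMIs in RUNX1::RUNX1T1 replicate 2, 96.6% in Control replicate 1 and 90.2% in Control replicate 2. The highest barcode had 11 UMIs in RUNX1::RUNX1T1 replicate 1, 11790 in RUNX1::RUNX1T1 replicate 2, 17898 in Control replicate 1 and 8383 in Control replicate 2. In these 3 pools the library total of the 6 genes therefore counts a few barcodes, none of them a T cell as defined here.

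**Figure D1:**
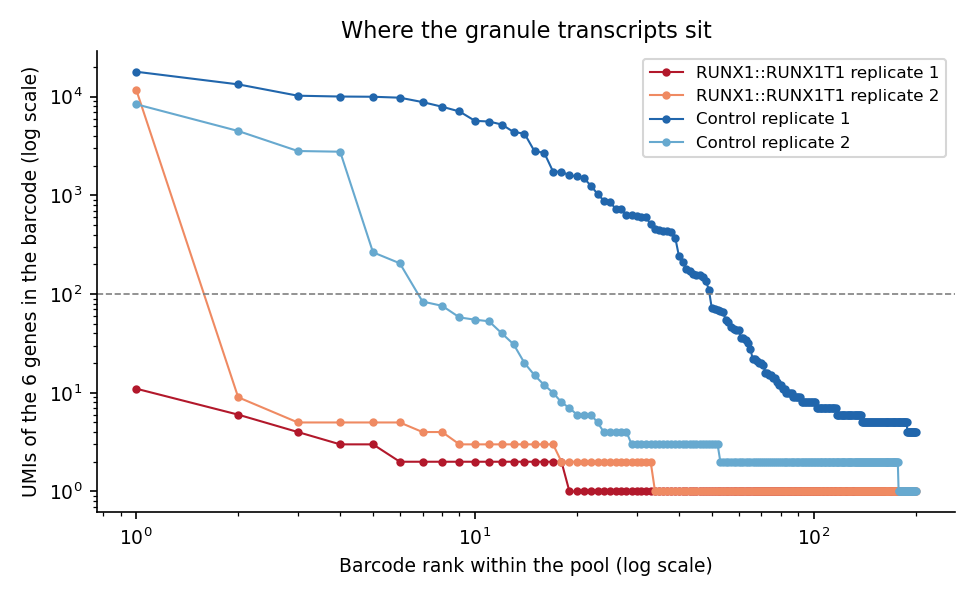
The 200 barcodes with the most UMIs of the 6 genes in each pool, with the rank on the x axis and the summed UMIs on the y axis, both on log scales; the dashed line marks 100 UMIs. RUNX1::RUNX1T1 replicate 1 has no barcode over the line, RUNX1::RUNX1T1 replicate 2 has 1, Control replicate 1 has 49 and Control replicate 2 has 6, and all 4 curves fall to a few UMIs per barcode.

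The barcodes over 100 UMIs carried many other myeloid transcripts. The single one of RUNX1::RUNX1T1 replicate 2 had 28950 UMIs, no Cd3 UMI, no TCR contig and 20 of the 31 myeloid markers found in the files. It held 3114 UMIs of S100a8, 4111 of S100a9, 1319 of Camp, 1934 of Ngp, 459 of Ltf and 853 of Lcn2, so that the 6 genes made up 40.7% of its transcripts. The 49 barcodes of Control replicate 1 had a median of 15 myeloid markers and of 863 UMIs of the 6 genes, with 27.2% as the median share of their transcripts. Their medians were 298 UMIs of S100a8, 341 of S100a9, 73 of Camp, 81 of Ngp, 3 of Ltf and 34 of Lcn2. Of the 49, 43 had more S100a9 than S100a8, 28 had all 6 genes, and 19 had no Ltf UMI. The 6 barcodes of Control replicate 2 had a median of 16.5 myeloid markers and of 2792.5 UMIs of the 6 genes, with a median share of 42.7%. The members thus differed in how widely they were present. In Control replicate 1, S100a8 and S100a9 were found in all 49 barcodes, Lcn2 in 45, Ngp in 43, Camp in 41 and Ltf in 30.

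Most of these barcodes passed as myeloid cells by markers other than the members, and some carried T cell signals as well. In Control replicate 1, 28 were Cd3-negative with at least 3 myeloid markers, 12 had a Cd3 UMI, no contig and at least 3 myeloid markers, and 6 had a Cd3 UMI, a contig and at least 3 myeloid markers. A further 2 were Cd3-negative and unassigned and 1 had a Cd3 UMI, no contig and no Trdc UMI. Whether the barcodes with both signals held 2 cells or 1 cell with free RNA was not tested. Chil3, a chitinase-like protein of neutrophils and macrophages, and Lyz2, the lysozyme of myeloid cells, were among the leading transcripts of the high barcodes, at 7200 and 13977 CPM (UMIs scaled to a common total), against 0.885 and 7.10 CPM in T cells.

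Cd3-negative cells were counted as myeloid where at least 3 myeloid markers were found, more than from any other marker list. The other lists were B, erythroid, progenitor and mast, and NK. Cells assigned to progenitor and mast numbered 130 and 115 in the RUNX1::RUNX1T1 pools and 20 and 124 in the Control pools. The cells counted as myeloid were not all neutrophils, and most had no member transcript. They numbered 98 and 101 in the RUNX1::RUNX1T1 pools and 217 and 264 in the Control pools. Their share of all kept cells was 0.710% (95% Wilson interval 0.583% to 0.865%) and 0.776% (0.639% to 0.942%) in the RUNX1::RUNX1T1 pools, and 1.70% (1.49% to 1.94%) and 1.96% (1.74% to 2.21%) in the Control pools. Intervals given here cover counting error only. Both Control pools lay above both RUNX1::RUNX1T1 pools, by 2.46-fold between the group means. The difference of -1.09 percentage points had p = 0.333 in a two-sided exact permutation test of 2 pools against 2, the smallest value this design allows. No UMI of any of the 6 genes was seen in 93.9% and 96.0% of these cells in the RUNX1::RUNX1T1 pools, and in 57.6% and 81.4% in the Control pools. The median depth of these cells was 10092 and 3084 UMIs in the RUNX1::RUNX1T1 pools and 12368 and 14180 in the Control pools. Both the 3-marker gate and the detection of a member depend on depth, and its part in the shares was not tested. CD3 sorting and mCherry gating act on these shares in both groups, and their part in the difference was not tested.

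Sorted by their leading markers, the myeloid-marker cells with neutrophil markers held most of the members' UMIs in every pool but RUNX1::RUNX1T1 replicate 1, where the only such cell held 0 of 12. Cells with more neutrophil markers, such as Csf3r, Cxcr2, Ly6g, Mmp8 and Mmp9, than monocyte or early granulocyte markers numbered 1, 1, 27 and 8 in RUNX1::RUNX1T1 replicates 1 and 2 and Control replicates 1 and 2. Their median UMIs of the 6 genes were 0, 11790, 620 and 28 in that order. Cells led by monocyte and macrophage markers numbered 30, 32, 86 and 58, and held only 9, 4, 507 and 93 UMIs of the 6 genes in all. Of these UMIs 455 came from 1 cell of Control replicate 1. The median depth of the monocyte-led cells was 952, 1231.5, 11992 and 10307 UMIs in the same order. Cells led by early granulocyte markers, Mpo, Elane, Prtn3, Ctsg, Ms4a3 and Cebpa, numbered 49, 37, 42 and 139 and held 1, 2, 6241 and 31 UMIs. The name is that of the marker set and not of a stage. Over all myeloid-marker cells, Elane was found in 2.04%, 1.98%, 25.3% and 6.06% in the same order. The median number of progenitor and mast markers in those cells was 4, 0, 0 and 3. Cells with no leading set numbered 18, 31, 62 and 59 and held 2, 1, 17961 and 108 UMIs, and 17898 of the 17961 came from the highest barcode of Control replicate 1. The 139 cells led by early granulocyte markers in Control replicate 2 held almost no member transcript. Of the 42 in Control replicate 1, 9 were over 100 UMIs. In number, the cells of this set in the RUNX1::RUNX1T1 pools, 49 and 37, stood on either side of the 42 of Control replicate 1. Both RUNX1::RUNX1T1 pools had 1 neutrophil-led cell and both Control pools had more.

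In T cells the members were rare in all pools, and 5 of the 6 were lower in both RUNX1::RUNX1T1 pools than in both Control pools. The 6 genes together gave 12.4 and 21.1 UMIs per 1000 T cells in RUNX1::RUNX1T1 replicates 1 and 2, and 319 and 99.5 in Control replicates 1 and 2. The exact Poisson intervals were 10.4 to 14.7, 18.3 to 24.2, 307 to 330 and 93.5 to 106. The mean was 16.8 ± 6.18 (SD, n = 2 pools) in the RUNX1::RUNX1T1 group and 209 ± 155 (SD, n = 2 pools) in the Control group. The log2 difference of the group means of log levels was -3.46, or 11.01-fold, with p = 0.333 in a two-sided exact permutation test, the smallest that 2 pools against 2 can give. The Control pools differed from each other by 3.20-fold and the RUNX1::RUNX1T1 pools by 1.71-fold, while the lower Control pool was 4.71-fold above the higher RUNX1::RUNX1T1 pool. A T cell with at least 1 UMI of the 6 genes made up 1.17%, 1.68%, 19.2% and 8.77% of T cells in the same order. With every T cell thinned to 2000 UMIs, the shares were 0.437%, 0.699%, 7.97% and 3.23%, and the order of the pools was the same.

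**Figure D2:**
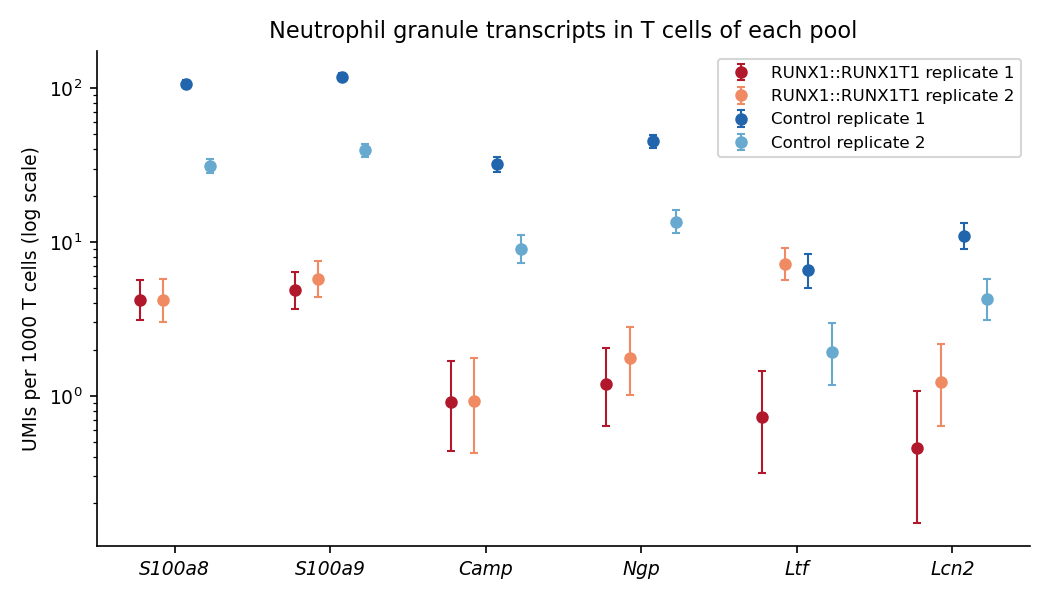
UMIs per 1000 T cells (log scale) of each of the 6 genes in each of the 4 pools; points are pool levels and bars are exact 95% Poisson intervals of the counts. For S100a8, S100a9, Camp, Ngp and Lcn2 both Control pools lie above both RUNX1::RUNX1T1 pools, while for Ltf RUNX1::RUNX1T1 replicate 2 lies at the level of Control replicate 1.

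The calprotectin pair gave most of these UMIs in every pool but RUNX1::RUNX1T1 replicate 2. S100a8 was at 4.22 and 4.22 UMIs per 1000 T cells in the RUNX1::RUNX1T1 pools and at 106 and 31.2 in the Control pools. Its RUNX1::RUNX1T1 pools were level with each other and its lower Control pool was 7.39-fold above them. S100a9 was at 4.86 and 5.77 UMIs per 1000 T cells in the RUNX1::RUNX1T1 pools and at 118 and 39.5 in the Control pools. The gap between the nearest pools of the 2 groups was 6.84-fold. No T cell of a RUNX1::RUNX1T1 pool had more than 2 UMIs of either gene, while the highest T cell of Control replicate 1 had 31 of S100a8 and 37 of S100a9.

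The secondary granule genes Camp and Ngp followed the same order of pools. Camp was at 0.917 and 0.927 UMIs per 1000 T cells in the RUNX1::RUNX1T1 pools, which is 10 and 9 UMIs in all, and at 32.0 and 9.02 in the Control pools. Ngp was at 1.19 and 1.75 UMIs per 1000 T cells in the RUNX1::RUNX1T1 pools and at 45.2 and 13.6 in the Control pools. Neither gene had more than 1 UMI in any T cell of the RUNX1::RUNX1T1 pools. Lcn2 was at 0.459 and 1.24 UMIs per 1000 T cells in the RUNX1::RUNX1T1 pools, 5 and 12 UMIs, and at 10.96 and 4.27 in the Control pools. The nearest pools of the groups were 3.45-fold apart for Lcn2, less than for the other 4 genes that did not overlap.

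Ltf was the exception. Its level was 0.734 and 7.21 UMIs per 1000 T cells in the RUNX1::RUNX1T1 pools and 6.57 and 1.94 in the Control pools. The 2 groups overlapped, and the RUNX1::RUNX1T1 pools were 9.83-fold apart. The ratio of its Control pools, 3.39-fold, lay among those of the other members, 2.57- to 3.55-fold.

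In a test over all genes, the sums per pool of T cells were compared with edgeR's quasi-likelihood method and Benjamini-Hochberg adjustment. Of 13742 genes tested, 320 were called higher and 130 lower in the RUNX1::RUNX1T1 pools, and the lower calls were 0.946% of the genes tested. Of the 6 members, 4 were called lower, a count that the choice of these genes with this contrast in view makes a description. The log2 fold change was -4.19 (SE 0.63, adjusted p = 0.0378) for S100a8, -4.06 (SE 0.56, adjusted p = 0.0339) for S100a9, -4.62 (SE 0.73, adjusted p = 0.0403) for Camp and -4.49 (SE 0.68, adjusted p = 0.0378) for Ngp. Lcn2 had a log2 fold change of -3.35 (SE 0.64, adjusted p = 0.0563), and Ltf of -0.31 (SE 0.97, adjusted p = 0.867). The median over the 6 members was -4.12 and the median over all genes tested was -0.00625. Without Control replicate 1 none of the 6 was called, with log2 fold changes of -3.06 for S100a8, -3.07 for S100a9, -3.44 for Camp and -3.38 for Ngp and adjusted p-values of 0.0952, 0.0877, 0.136 and 0.126. In that fit only 6 genes were called in all, none of them lower, with 2008 genes at an unadjusted p under 0.05. Without Control replicate 2 the same 4 members were called, among 9 genes called lower and 6 called higher, and Lcn2 had an adjusted p of 0.110.

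Scaling by the number of cells in place of the library size brought the median log2 fold change of all genes from -0.00625 to 0.17 and turned the split of calls to 1599 higher and 148 lower. S100a8 had a log2 fold change of -4.02 on that scale. DESeq2 called 5 of the 6 members, all but Ltf, among 911 genes higher and 441 lower.

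Other granule genes of neutrophils moved with the members in part. Of a list of 25, 15 were tested, 5 were called lower and 1 higher in the RUNX1::RUNX1T1 pools, with a median log2 fold change of -2.05. At an unadjusted p under 0.05 there were 11, and DESeq2 called 9. The 5 lower genes, named after their values were seen, were Chil3 (log2 fold change -3.98), Ifitm6 (-3.08), Prtn3 (-2.97), Lyz2 (-2.78) and Hp (-2.05). Chil3 encodes a chitinase-like lectin, Prtn3 proteinase 3 of primary granules and Hp haptoglobin. The 4 genes of this list with the most UMIs in T cells did not follow them. Pglyrp1 (log2 fold change 0.32, adjusted p = 0.305), which encodes a peptidoglycan recognition protein, Anxa1 (-0.64, adjusted p = 0.150), an annexin, and Mmp9 (-0.39, adjusted p = 0.169), a gelatinase, were not called, and Adam8 (1.90, adjusted p = 0.0416), a membrane metalloproteinase, was called higher. Pglyrp1 was at 918 to 1681 UMIs per 1000 T cells, so the list mixes genes that T cells themselves contain with genes close to zero in them.

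The remaining lists set the members against other kinds of transcript. Of the other S100 genes, 7 of 13 were tested, 1 was called higher, S100a4 (log2 fold change 1.72, adjusted p = 0.0265), and 0 lower by edgeR, with 5 at an unadjusted p under 0.05 and 2 called by DESeq2. Of 6 erythroid genes tested 0 were called by edgeR or DESeq2, and 0 had an unadjusted p under 0.05, Hbb-bs having a log2 fold change of -0.18. Of 8 B lineage genes tested 1 was called, Cd74 (log2 fold change 1.71), the invariant chain of MHC class II, with 3 at an unadjusted p under 0.05, 2 called by DESeq2 and a median of -0.41. Of 8 T cell genes tested 0 were called by edgeR, with 3 at an unadjusted p under 0.05 and 3 called by DESeq2. Of 10 monocyte and macrophage genes tested 0 were called by edgeR, with 6 at an unadjusted p under 0.05 and 2 called by DESeq2. The monocyte list summed to 9906 and 9987 UMIs per 1000 T cells in the RUNX1::RUNX1T1 pools and 11257 and 13914 in the Control pools, nearly all of it Ly6c2, which memory T cells also express.

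Whether the members stood at 1 level in different kinds of T cell was asked within each pool. Kinds were set by UMIs of Cd4, Cd8a, Cd8b1, Ccl5 (a chemokine of effector and memory cells) and Foxp3 (the factor of regulatory T cells). In Control replicate 1, the 6 genes summed to between 266 UMIs per 1000 cells in Cd8+ Ccl5- T cells and 398 in Cd4+ Ccl5- Foxp3- T cells, a range of 1.49-fold over 7 kinds. In Control replicate 2 they ran from 50 in Cd4+ Foxp3+ cells to 126 in Cd4+ Ccl5+ cells, a range of 2.52-fold. In RUNX1::RUNX1T1 replicate 1 the range was from 6.73 in T cells with both co-receptors to 18.2 in Cd4+ Ccl5+ cells, and in RUNX1::RUNX1T1 replicate 2 from 6.32 in Cd8+ Ccl5- cells to 36.7 in T cells with both co-receptors. The widest range, 5.82-fold, belonged to RUNX1::RUNX1T1 replicate 2, where Ltf gave 6 of the 18 UMIs of the highest kind. The lowest levels of RUNX1::RUNX1T1 replicates 1 and 2 rest on 3 UMIs each, with intervals of 1.39 to 19.7 and 1.30 to 18.5. In every one of the 7 kinds both Control pools lay above both RUNX1::RUNX1T1 pools, while the order of the kinds differed between pools. The intervals of neighbouring kinds overlapped in most cases, and the Cd4+ Foxp3+ level of Control replicate 2, which rests on 10 UMIs in 200 cells, had an interval of 24.0 to 92.0.

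**Figure D3:**
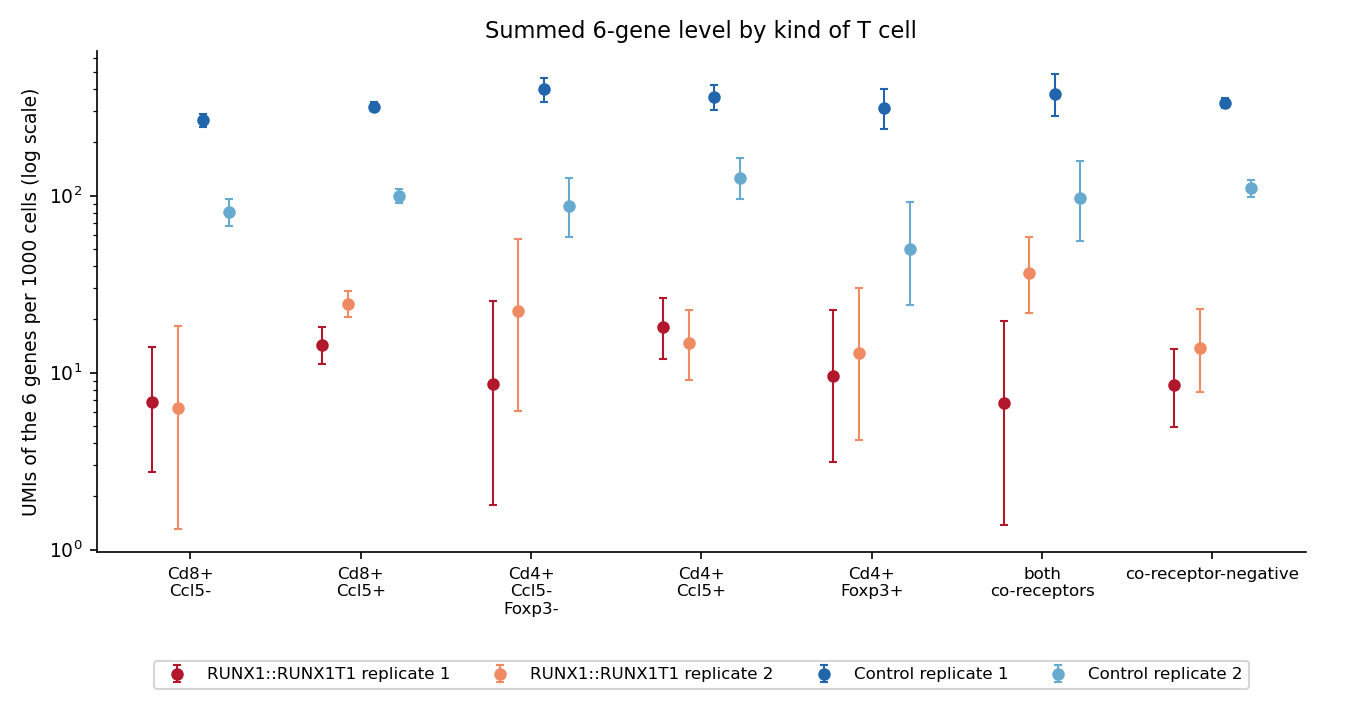
Summed UMIs of the 6 genes per 1000 cells (log scale) in each of 7 kinds of T cell; points are pool levels and bars are exact 95% Poisson intervals of the counts. The Control pools lie above the RUNX1::RUNX1T1 pools in all 7 kinds, and the kinds of 1 pool range over 2.71-, 5.82-, 1.49- and 2.52-fold in RUNX1::RUNX1T1 replicates 1 and 2 and Control replicates 1 and 2.

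Outside the αβ T cell gate, Cd3+ barcodes with a Trdc UMI carried the members near the level of the T cells of their own pool, and other classes did so in some pools only. Cells with a Cd3 UMI, no contig and a Trdc UMI, a gene of the γδ T cell receptor, had 15.6, 21.1, 272 and 94.9 UMIs of the 6 genes per 1000 cells in RUNX1::RUNX1T1 replicates 1 and 2 and Control replicates 1 and 2. Each of these values lay within 1.5 times of its own pool's T cell level. Cells with progenitor and mast cell markers had 23.1, 17.4, 200 and 266 per 1000 cells in the same order, from only 20 cells in Control replicate 1. In Control replicate 2 their interval of 183 to 374 lay above the T cell level of 99.5, with no cell over 4 UMIs. Cells with a Cd3 UMI, no contig and no Trdc UMI had 9.08, 19.2, 588 and 302, where 1 barcode held 242 of the 697 UMIs of Control replicate 1 and 1 barcode held 205 of the 315 of Control replicate 2. Cd3-negative cells that met no marker list had 53.5, 6.98, 1275 and 615, including 2 barcodes of Control replicate 1 and 1 of Control replicate 2 that were over 100 UMIs. In RUNX1::RUNX1T1 replicate 1, which had no such barcode, the interval of 35.2 to 77.8 lay above the T cell level of 12.4, and 11 of the 27 UMIs came from 1 barcode.

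The level of the members per cell rose far less than the depth of the T cell. T cells of each pool were split into 4 bins of equal size by their total UMIs, and the deepest bin had 2.36 to 2.83 times the median UMIs of the shallowest. UMIs of the 6 genes per cell were 1.32, 1.0, 1.08 and 1.06 times as high in the deepest as in the shallowest bin of RUNX1::RUNX1T1 replicates 1 and 2 and Control replicates 1 and 2. As a share of the cell's UMIs, the 6 genes were 2.43, 3.07, 2.48 and 2.56 times as high in the shallowest as in the deepest bin. The ratio of the outer bins hides the inner ones in RUNX1::RUNX1T1 replicate 2, whose 4 bins held 15.2, 27.6, 26.4 and 15.3 UMIs per 1000 cells from shallow to deep. It also hides them in Control replicate 1, whose 4 bins held 335, 291, 286 and 362. There the interval of the third bin, 265 to 308, lay below those of the shallowest, 312 to 359, and the deepest, 339 to 387. In Control replicate 2 the 4 bins held 97.4, 101, 96.2 and 104 UMIs per 1000 cells, and their intervals all overlapped. A constant number per droplet appears as a higher share of a shallow cell, and values scaled to the depth of the cell carry that difference.

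**Figure D4:**
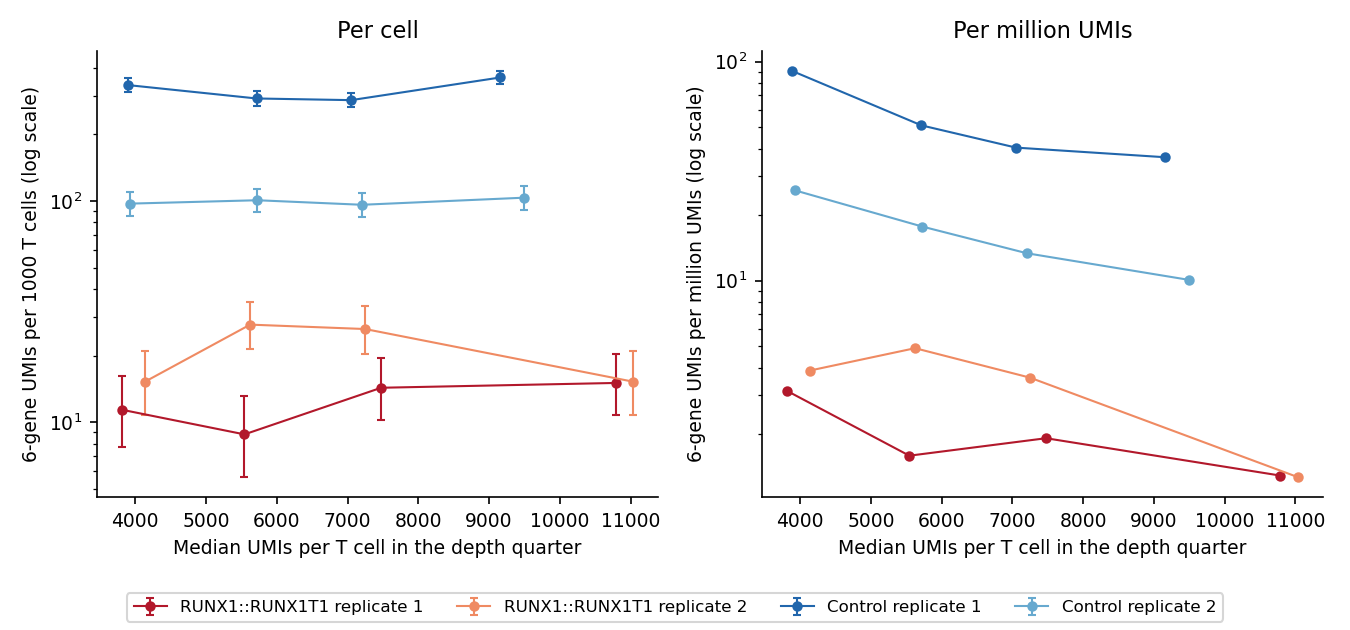
Level of the 6 genes in T cells split into 4 bins of equal size by depth, with the median UMIs of the bin on the x axis, UMIs per 1000 cells on the left and CPM on the right (y axes on log scales); bars on the left are exact 95% Poisson intervals. Control replicate 2 stays between 96.2 and 104 UMIs per 1000 cells, while its CPM falls from 25.8 to 10.1. Control replicate 1 lies between 286 and 362 UMIs per 1000 cells, with its inner bins below its outer ones.

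The counts among T cells spread more widely than independent draws in every pool, least so in RUNX1::RUNX1T1 replicate 1 and Control replicate 2. The variance over the mean of the 6-gene UMIs per T cell, which is 1 for Poisson counts, was 1.12 in RUNX1::RUNX1T1 replicate 1 and 1.28 in Control replicate 2. It was 1.91 in RUNX1::RUNX1T1 replicate 2 and 6.32 in Control replicate 1. In Control replicate 1, 10 T cells with 10 or more UMIs held 294 of the 3052 UMIs, the highest with 71, and without them the ratio was 1.99 and the mean 0.288 UMIs per T cell. The calprotectin genes shared cells in the Control pools, where 23.2% (175 of 755) and 8.33% (25 of 300) of S100a8-positive T cells had S100a9, against 8.69% and 3.60% of all T cells. In RUNX1::RUNX1T1 replicate 1 no S100a8-positive T cell of 44 had S100a9, against 0.459% of all T cells. In RUNX1::RUNX1T1 replicate 2 it was 7.5% (3 of 40), against 0.546% of all T cells. That ratio of 13.7 was above those of the Control pools, 2.67 and 2.32, but rests on 3 cells. Cells of 1 pool share their source, so these shares carry no test.

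The mixture of the 6 genes in T cells resembled that in the high barcodes of the same Control pool, with small shifts. These are shares of UMIs, which count transcript ends and are not scaled by gene length. In Control replicate 1, S100a8 made up 33.3% (31.6% to 35.0%) of the 6-gene UMIs in T cells and 28.8% (28.6% to 29.0%) in barcodes over 100 UMIs. S100a9 made up 37.0% and 36.2%, Camp 10.1% and 12.5%, Ngp 14.2% and 14.2%, Ltf 2.06% and 3.11%, and Lcn2 3.44% and 5.16%. In Control replicate 2 the shares in T cells and high barcodes were 31.4% and 29.5% for S100a8, 39.7% and 37.9% for S100a9, 9.06% and 10.3% for Camp and 1.95% and 3.88% for Ltf. In both Control pools the share of S100a8 was thus higher, and those of Camp and Ltf lower, in the T cells, though for S100a8 and Camp the intervals overlapped in Control replicate 2. RUNX1::RUNX1T1 replicate 2 departed from this, with Ltf at 34.1% (28.0% to 40.9%) of the 6-gene UMIs of T cells and 3.89% (3.56% to 4.26%) in its 1 high barcode. RUNX1::RUNX1T1 replicate 1 had no high barcode, and its T cells still held 135 UMIs of the 6 genes, 34.1% of them S100a8 and 39.3% S100a9. Without Ltf, the T cells of the 4 pools held 11.7, 13.9, 312 and 97.6 UMIs per 1000 cells of the other 5 genes, so the RUNX1::RUNX1T1 pools with and without a barcode over 100 UMIs were within 1.5 times of each other.

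The first test between kinds of T cell set Cd8+ Ccl5+ against Cd8+ Ccl5- cells within pools. With edgeR's quasi-likelihood method on 11563 genes, 2121 (18.3%) were called higher and 1886 lower in Cd8+ Ccl5+ cells. Of the members 4 passed the filter on low counts, and 0 of these were called by edgeR or DESeq2, with 0 at an unadjusted p under 0.05 in edgeR. S100a8 was at 4.72 against 0.974, 4.42 against 4.21, 108 against 93.9 and 34.0 against 27.3 UMIs per 1000 cells in the 2 kinds, in RUNX1::RUNX1T1 replicates 1 and 2 and Control replicates 1 and 2. Its log2 fold change was 0.01 (SE 0.18, adjusted p = 0.968). S100a9 had a log2 fold change of 0.07 (SE 0.19, adjusted p = 0.805), Camp of -0.21 (SE 0.27, adjusted p = 0.600) and Ngp of 0.04 (SE 0.27, adjusted p = 0.936). Ltf did not pass the filter. It was at 1.38 against 0, 10.96 against 0, 6.88 against 2.10 and 1.96 against 0.594 UMIs per 1000 Cd8+ Ccl5+ and Cd8+ Ccl5- cells in the same order of pools, higher in Cd8+ Ccl5+ cells in 4 of 4. Per cell, S100a8, S100a9 and Ngp were also higher in Cd8+ Ccl5+ cells in 4 of 4 pools, while Camp and Lcn2 were not. Without the filter edgeR called Ltf higher in Cd8+ Ccl5+ cells (log2 fold change 1.97, SE 0.64, adjusted p = 0.0305), and DESeq2 did not (2.19, unadjusted p = 0.0331, adjusted p = 0.114). Of the other S100 genes 6 were tested and 6 were higher in Cd8+ Ccl5+ cells, S100a4 by 2.18 and S100a6 by 2.89 on the log2 scale. Of the other granule genes 10 were tested and 4 were higher, Pglyrp1 (1.60), Mmp9 (2.98), Adam8 (1.99) and Anxa1 (1.02). Of 4 erythroid genes tested, edgeR called 1 higher, Hbb-bt (1.34, adjusted p = 0.0444), and 1 lower, Blvrb (-0.58, adjusted p = 0.00448). The globin Hbb-bs was not called (1.07, adjusted p = 0.0711), so the globin transcripts were not shown to be level across these kinds.

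Scaling this contrast by cells brought the median log2 fold change of all genes from -0.00664 to 0.28 and gave 6331 higher and 509 lower calls. On that scale edgeR gave S100a8 0.30, S100a9 0.36, Camp 0.08 and Ngp 0.33, none of them called (adjusted p-values of 0.119 to 0.808). Per cell, the 6 genes summed were 2.11-, 3.89-, 1.19- and 1.24-fold higher in Cd8+ Ccl5+ cells, in RUNX1::RUNX1T1 replicates 1 and 2 and Control replicates 1 and 2. The sign of S100a8 turned under several settings, all with values near 0.

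In the contrast of Cd4+ with Cd8+ T cells, also blocked by pool, 2879 of 12355 genes (23.3%) were called higher and 2562 lower in Cd4+ cells. Of the members 5 were tested and 1 was called, S100a9, with a log2 fold change of 0.48 (SE 0.15, adjusted p = 0.0354). S100a9 was at 5.97 against 5.40, 8.01 against 4.57, 134 against 110 and 38.8 against 34.4 UMIs per 1000 Cd4+ and Cd8+ cells, in RUNX1::RUNX1T1 replicates 1 and 2 and Control replicates 1 and 2. It was higher in Cd4+ cells in 4 of 4 pools, by 1.10-, 1.75-, 1.21- and 1.13-fold. The call was lost when UMIs were scaled by cells, where the log2 fold change was 0.31 (adjusted p = 0.124), without any single pool, with adjusted p-values of 0.063 to 0.135, and without the pool as a block (0.32, adjusted p = 0.879). S100a9 was called in 6 of 15 alternatives, and DESeq2 called 0 of the members. Scaling by cells brought the median log2 fold change of all genes from 0.0114 to -0.19 and gave 1650 higher and 5009 lower calls. S100a8 (log2 fold change 0.15, adjusted p = 0.541), Camp (0.49, adjusted p = 0.154), Ngp (0.61, adjusted p = 0.145) and Lcn2 (-0.18, adjusted p = 0.735) were not called. Of the other S100 genes 6 of 7 were higher in Cd4+ cells, S100a4 by 2.55 and S100a6 by 1.37, and of the other granule genes 5 of 11 were higher, among them Mmp9 (3.91) and Pglyrp1 (0.56).

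Ltf in T cells sat in few clonotypes in the RUNX1::RUNX1T1 pools, a pattern examined after its levels were seen and given without a test. T cells with an Ltf UMI numbered 6, 36, 45 and 20 in RUNX1::RUNX1T1 replicates 1 and 2 and Control replicates 1 and 2, with 8, 70, 63 and 20 UMIs. Another member was present in 0, 0, 21 and 3 of them, and the other 5 genes were so rare in the RUNX1::RUNX1T1 pools, at 11.7 and 13.9 UMIs per 1000 T cells, that these zeros carry little weight. In RUNX1::RUNX1T1 replicate 2, 31 of the 36 were Cd8+ Ccl5+, 13 had at least 2 Ltf UMIs and the highest had 9. Of its 32 Ltf-positive T cells with a clonotype, 21 belonged to 1 clonotype, the largest of that pool, which had 1095 T cells, 1084 of them Cd8+ Ccl5+. In RUNX1::RUNX1T1 replicate 1, 4 of 6 belonged to 1 clonotype of 113 cells. In the Control pools the 39 and 20 Ltf-positive T cells with a clonotype had 39 and 20 different clonotypes. The largest clonotypes of the Control pools had only 35 and 39 T cells, which limits how often positive cells can share a clonotype there. Lcn2-positive T cells likewise had 76 and 39 clonotypes among 76 and 39 cells. S100a9, however, was found in 11 cells (31.4%) of the largest clonotype of Control replicate 1, against 8.69% of all T cells of that pool. In RUNX1::RUNX1T1 replicate 2 the Ltf-positive T cells had 11 clonotypes among 32 cells, and S100a9-positive T cells had 41 among 48.

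The largest clonotype of RUNX1::RUNX1T1 replicate 2 was higher in Ltf than the rest of its pool and at the level of its pool in the calprotectin genes. An Ltf UMI was seen in 1.92% (1.26% to 2.91%) of its cells, in 0.262% (0.150% to 0.458%) of the Cd8+ Ccl5+ T cells outside it and in 0.0743% (0.0253% to 0.218%) of the other T cells. Ltf was at 45.7, 3.72 and 0.743 UMIs per 1000 cells in these 3 sets. S100a8 and S100a9 together were at 10.0, 9.18 and 10.9 UMIs per 1000 cells in the same sets. In Control replicate 1, Ltf was seen in 0.430% of Cd8+ Ccl5+ T cells outside its largest clonotype and in 0.495% of the other T cells, and in Control replicate 2 in 0.196% and 0.193%. S100a8 and S100a9 together were at 543 UMIs per 1000 cells in the largest clonotype of Control replicate 1, against 225 and 221 outside it. That level rests on 19 UMIs in 35 cells. The same levels of Control replicate 2 were 128, from 5 UMIs, against 70.9 and 70.1. The largest clonotype of RUNX1::RUNX1T1 replicate 1 had 1 such UMI in 134 cells. Cells of 1 clonotype are taken to descend from 1 T cell and are not replicates.

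**Figure D5:**
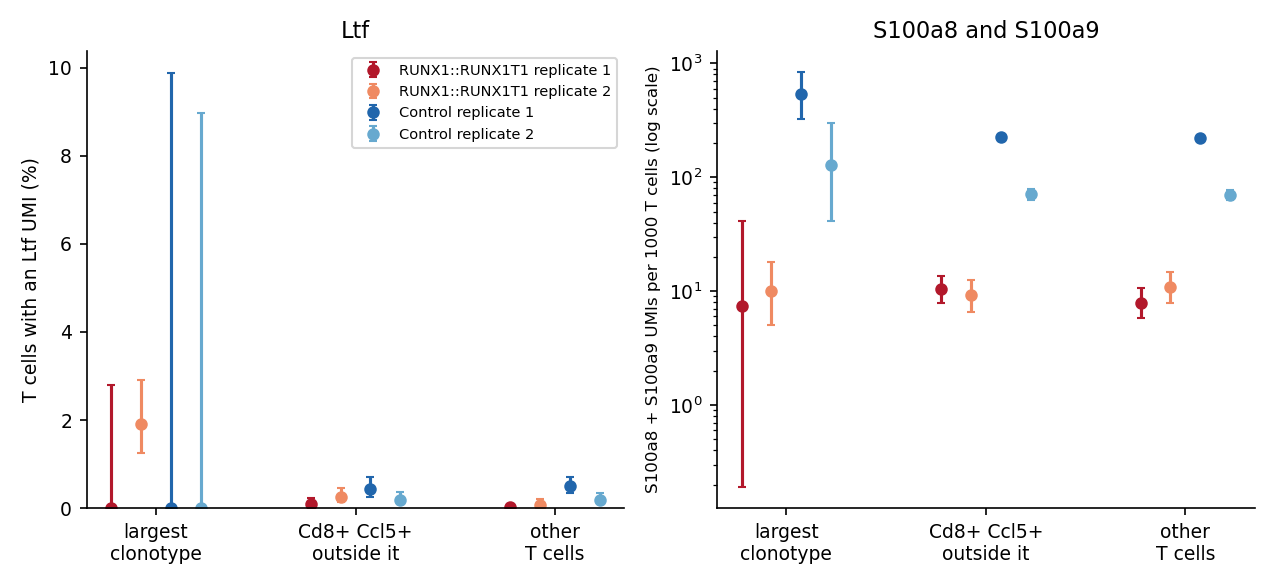
Left, percent of T cells with an Ltf UMI (bars: 95% Wilson intervals); right, UMIs of S100a8 and S100a9 per 1000 T cells (log scale; bars: exact 95% Poisson intervals), in the largest clonotype of each pool, the Cd8+ Ccl5+ T cells outside it and the other T cells. In RUNX1::RUNX1T1 replicate 2 the largest clonotype has Ltf in 1.92% of its cells against 0.262% and 0.0743%. Its S100a8 and S100a9 level of 10.0 is close to the 9.18 and 10.9 of the other sets. The largest clonotypes of the other pools are small and have wide intervals. That of Control replicate 1, with 35 cells, has an S100a8 and S100a9 level of 543 against 225 and 221.

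Across 59 sums of 1 cell class in 1 pool, each with at least 20 cells, each gene was set against the sum of the 6 members. Likeness was Pearson's r of log2 levels, with an offset of 0.01 on scaled UMIs, among 11211 genes with at least 500 UMIs, given as a description because the sums share libraries and depth. The highest were Wfdc21 (0.85), Cd177 (0.85), Fcnb (0.84), Chil3 (0.82), Gapt (0.80), Upb1 (0.80), Ifitm6 (0.78), Retnlg (0.77), Gm34680 (0.77) and Gpr141 (0.75). Cd177 is a surface glycoprotein of neutrophils, Fcnb a ficolin of granules and Retnlg a resistin-like protein of mature neutrophils. Among the members S100a8 was closest to the sum of the 6 (0.99), followed by S100a9 (0.97), Ngp (0.96), Camp (0.95), Lcn2 (0.91) and Ltf (0.89) (the sum contains each of them).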

How the data were processed

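Gene expression and V(D)J libraries of 4 pools of sorted bone marrow T cells were used. The authors deposited raw UMI counts per gene and barcode from Cell Ranger 6.1.2 on GRCm38, already limited to barcodes called as cells, and tables of TCR contigs. The annotation release is not given in the sources used here. No columns of other samples were present (0).

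Barcodes were kept from 200 genes upwards when no more than 15% of UMIs were mitochondrial. Scrublet (in scanpy 1.11.5, Python 3.11.15, expected rate 0.05) marked 0, 573, 0 and 1 barcodes in RUNX1::RUNX1T1 replicates 1 and 2 and Control replicates 1 and 2. Where it marked under 0.5%, the 5% with the highest scores were removed. Cell classes were gates on UMIs and productive contigs. Of 32 listed myeloid markers 31 were found.

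UMIs were summed per pool and class and tested with edgeR 4.0.16 (R 4.3.3): TMM, filterByExpr, quasi-likelihood test, Benjamini-Hochberg threshold 0.05. DESeq2 1.42.0 was an alternative. Single values per pool were compared by exact permutation. Intervals are Wilson or exact Poisson at 95%. The fits were tested on simulated data.

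The members, gene lists and gates were chosen with earlier results of these data known. Named genes were the 6 members, at most 4 genes of each list by their UMIs in T cells, and the 10 genes most like the members. Alternatives changed the test, scaling, filters, depth, doublets, gates and pools. Exclusion of T cells with 10 or more member UMIs, and of Ltf, was added after seeing the data. Same-numbered pools share only a number, so no pairing entered the tests between groups.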

Additional observations from a re-analysis of the deposited data

Results flagged for a closer look

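Camp was flagged because its difference between Cd8+ Ccl5+ and Cd8+ Ccl5- T cells pointed one way in both pools of one group and the other way in both pools of the other. Cd8+ Ccl5+ minus Cd8+ Ccl5- was -1.16 and -1.40 UMIs per 1000 cells in RUNX1::RUNX1T1 replicates 1 and 2, and 1.26 and 2.74 in Control replicates 1 and 2. The difference between the groups was not tested. The RUNX1::RUNX1T1 values rest on 4 and 2 UMIs in replicate 1 and on 4 and 1 UMIs in replicate 2.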

How the results depend on the processing

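Of 70 alternative values of the 5 summary results, 59 kept their direction and stayed within 1.5 times a count or on the same side of the threshold, and 11 counts moved. The count of 450 genes between the groups became 1352 with DESeq2, 1747 per cell, 1158 with the replicate number as a replicate block, and 6 to 2227 without 1 pool, with the lowest without Control replicate 1. The count of 4007 between Cd8+ Ccl5+ and Cd8+ Ccl5- cells became 6840 per cell, 2417 with cells thinned to 2000 UMIs and 2662 to 4325 without 1 pool; without the pool as a block it was 2795. The count of 5441 between Cd4+ and Cd8+ cells became 3279 with thinned cells and 3977 to 5357 without 1 pool; without the block it was 3976. The cause of these shifts was not tested. Thinning and leaving out a pool both lower the counts entering the fit. With thinned cells the calls between the groups were 555, above the 450 of the main fit.

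The log2 difference of -3.46 in 6-gene UMIs per T cell ran from -4.30 to -2.62 without 1 pool, was -3.39 without T cells of 10 or more member UMIs, -3.78 without Ltf and -0.63 (exact permutation p = 1) for Ltf alone, and -3.46 with the replicate block. Leaving out a pool gave -1.22 to -0.957 percentage points for the myeloid-marker share.

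Single genes gave 548 values, of which 474 kept their call, 33 lost it, 19 gained it and 22 changed sign. Ltf between groups was 0.044 without T cells of 10 or more member UMIs and -2.63 to 0.81 without 1 pool. Hbb-bs was -0.57 to 0.13 without 1 pool. In Cd8+ Ccl5+ against Cd8+ Ccl5- cells, S100a8 was -0.18 with thinned cells, -0.054 with doublets kept, -0.23 without any myeloid marker UMI, -0.24 without the block, -0.055 without T cells of 10 or more member UMIs and -0.048 to 0.17 without 1 pool. S100a9 was -0.37 without any myeloid marker UMI, -0.18 without the block and -0.015 without T cells of 10 or more member UMIs. Camp was 0.084 per cell. Ngp was -0.031 with doublets kept, -0.073 with both TCR chains required, -0.27 without the block and -0.0039 to 0.0021 without 1 pool. S100a8 in Cd4+ against Cd8+ cells was -0.017 per cell and -0.016 to 0.31 without 1 pool.

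Same-numbered pools deviated together with r = 0.157 over 7833 genes, a value that 2 pairs share by construction. Among the members the replicate block changed the call of Lcn2 alone, from log2 -3.35 and not called to -3.25 and called. Depth limits Camp, Ngp, Ltf and Lcn2 in the RUNX1::RUNX1T1 pools, where 5 to 17 UMIs carry a level, Ltf of replicate 2 excepted.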

Other observations

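The T cell barcodes set aside for carrying at least 3 myeloid markers numbered 78 and 77 in the RUNX1::RUNX1T1 pools and 143 and 125 in the Control pools. They held 9, 2, 10885 and 109 UMIs of the 6 genes, and 8818 of the 10885 in Control replicate 1 sat in 1 barcode. Cst3, one of the myeloid markers, had a UMI in 44.5% to 48.1% of T cells, so 2 further markers were enough to set a T cell barcode aside.

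The early granulocyte genes did not share 1 pattern in T cells. Elane, the neutrophil elastase of primary granules, was at 0.459 and 0.515 UMIs per 1000 T cells in the RUNX1::RUNX1T1 pools and at 13.7 and 1.46 in the Control pools. Prtn3, its neighbour in the same granules, was at 1.93 and 2.37 in the RUNX1::RUNX1T1 pools and at 15.03 and 14.8 in the Control pools. Mpo, the myeloperoxidase, was at 16.1 and 15.7 in the RUNX1::RUNX1T1 pools and at 12.3 and 6.59 in the Control pools, with both RUNX1::RUNX1T1 pools above both Control pools. Ctsg, cathepsin G, was at 4.22 and 12.4 in the RUNX1::RUNX1T1 pools and at 4.17 and 3.01 in the Control pools. Ms4a3, a marker of granulocyte and monocyte precursors, was at 0.275 and 0.412 in the RUNX1::RUNX1T1 pools and at 0.731 and 0.194 in the Control pools, from 16 UMIs in all. The Control pools were thus level in Prtn3 and far apart in Elane. Among the Cd3-negative myeloid-marker cells, Elane was detected in 25.3% and 6.1% of the cells of Control replicates 1 and 2, and Prtn3 in 50.7% and 72.7%. Elane, Prtn3, Mpo, Ctsg and Ms4a3 are themselves myeloid markers, so the gates act on their levels in T cells and in myeloid-marker cells.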
